A study of Mus musculus with 6 samples.

Results

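The genes that build and load MHC class I molecules were followed in Lin- Sca1+ c-Kit+ (LSK) cells, the bone marrow fraction that holds hematopoietic stem cells and multipotent progenitors. The 10 genes were taken by name from the deposited gene table, as 10 of the 54532 genes in it. They are the heavy chains H2-K1, H2-D1, H2-Q7 and H2-T23, the light chain B2m, the peptide transporter subunits Tap1 and Tap2, the loading factor Tapbp, the trimming enzyme Erap1 and the transactivator Nlrc5. All 10 passed the filter on low values and were among the 11552 genes tested. Libraries of Myh9 fl/fl;Mx1-cre mice (cKO, n = 3) were compared with those of Myh9 fl/fl;no cre littermates (CTRL, n = 3), to ask how the transcriptome of LSKs changes when Myh9 is deleted.

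Both groups were C57BL/6, carried the floxed Myh9 alleles and received poly I:C. Per the labels, 2 doses of 5 mg/kg were given, and 100000 LSKs were sorted for a library on day 4, counted from the first injection. The study's general methods give 1 dose more, and place the injections at 5 to 6 weeks after birth. Mx1-cre is driven by an interferon-inducible promoter that is not restricted to LSKs, and poly I:C induces interferon in the controls as well. The controls had no Cre, so Cre itself and the loss of Myh9 cannot be told apart. Myh9, the targeted gene, which encodes the heavy chain of non-muscle myosin IIA, had means of 22.5 ± 0.495 FPKM in CTRL and 18.7 ± 1.18 FPKM in cKO (SD, n = 3). It was lower in every cKO library (log2 fold change −0.26, limma adjusted p = 0.00642). The value covers the whole gene, floxed part or not, and after correction for GC and length trends it was −0.093 (adjusted p = 0.122).

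FPKM are fragments per unit of gene length, scaled to the size of the library, here a normalized size close to the reads counted, so levels of different genes can be set side by side. Whole reads could be recovered from them and summed to between 17571544 and 19894562 reads on genes per library. They gave 24805 to 44189 reads per library for H2-K1 and 929 to 1057 for Nlrc5, the member with the fewest. The labels do not say whether a library came from 1 animal or from pooled animals. The p-values therefore set the group difference against the spread between the 3 libraries of a group, which may not be that between animals. The spread was moderated over all genes tested. Log2 fold changes are cKO over CTRL on the log2(FPKM + 1) scale, and a gene is said to have changed where its Benjamini-Hochberg adjusted p over all genes tested, from limma, was under 0.05.

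MHC class I molecules display short peptides from the cell's own proteins on the surface of nearly all nucleated cells, where CD8 T cells and NK cells inspect them. Proteasomes cut the peptides, the Tap1-Tap2 transporter pumps them into the endoplasmic reticulum, Erap1 trims them, and tapasin (Tapbp) with calreticulin and ERp57 helps a heavy chain bound to beta-2 microglobulin to take up a fitting peptide. Nlrc5 enters the nucleus and binds, through the RFX, CREB and NF-Y proteins, to an SXY module in class I promoters, and interferon raises most of these genes, in part through Irf1. Stem and progenitor cells of the marrow carry class I molecules as well.

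Promoter sequences are shown for the heavy chains and for B2m, which pairs with all of them. H2-K1, H2-D1 and H2-Q7, the heavy chains whose stretches were aligned with each other, did not move together. The stretches come from RefSeq windows on GRCm38.p6 that run from 250 bases before to 50 bases after an annotated start. The RefSeq start lay 364 bases from the deposited gene start for H2-D1, 154 bases from it for H2-T23, 285 for Erap1 and 3579 for Tapbp. Capitals mark letters searched for on both strands. They are the NF-kB element of enhancer A (the first run of capitals in H2-K1, H2-D1 and H2-Q7, and the second in B2m), the X2 box (TGACGC in H2-K1 and H2-D1, and TGACGT in H2-Q7), the Y box (CCAAT, read as ATTGG on the other strand), and the interferon-stimulated response element, a repeat of GAAA spaced by any 2 bases (the first run in B2m and, on the other strand, in H2-T23).
H2-K1, chr17:34000320-34000473, minus strand: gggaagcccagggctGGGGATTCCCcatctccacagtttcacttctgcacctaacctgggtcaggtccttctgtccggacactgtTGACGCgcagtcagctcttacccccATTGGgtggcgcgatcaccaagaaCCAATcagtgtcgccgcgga
H2-D1, chr17:35262908-35263060, plus strand: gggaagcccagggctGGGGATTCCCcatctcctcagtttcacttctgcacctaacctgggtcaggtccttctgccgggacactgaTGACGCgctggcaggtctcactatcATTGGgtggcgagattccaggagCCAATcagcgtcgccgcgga
H2-Q7, chr17:35439007-35439158, plus strand: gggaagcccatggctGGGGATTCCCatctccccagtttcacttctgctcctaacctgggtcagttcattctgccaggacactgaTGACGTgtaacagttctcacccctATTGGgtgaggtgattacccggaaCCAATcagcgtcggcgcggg
H2-T23, chr17:36032734-36032840, minus strand: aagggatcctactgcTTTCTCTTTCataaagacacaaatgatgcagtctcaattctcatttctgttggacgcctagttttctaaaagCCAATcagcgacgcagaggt
B2m, chr2:122147533-122147653, plus strand: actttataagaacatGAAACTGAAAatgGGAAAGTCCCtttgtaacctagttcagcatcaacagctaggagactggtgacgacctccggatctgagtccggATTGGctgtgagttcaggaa

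The H2-K1 and H2-D1 stretches matched at 137 of 153 aligned bases, an identity of 89.5%. The H2-Q7 stretch was 84.9% identical to that of H2-K1 and 86.1% identical to that of H2-D1. All 3 held the same NF-kB element, an X2 box and CCAAT on both strands, in the same order. That NF-kB element was found in 0.107% of the 32851 promoters of the table, TGACGC in 7.4%, TGACGT in 7.51% and CCAAT in 37.4%, and the 3 kinds together in 5 promoters, or 0.0152%. The 5 include those of H2-K1, H2-D1 and H2-Q7, and a gene can have more than 1 entry, as H2-K1 does with 2. The strict letters of the interferon-stimulated response element stood in the windows of B2m, H2-T23 and Erap1 and in 3.44% of all promoters. Looser forms of it were not searched for, so the windows of H2-K1, H2-D1 and H2-Q7 are not shown to lack it. The other form of the NF-kB element, which B2m held, stood in 0.155%. The Tap1 and Tapbp windows held CCAAT alone of the letters searched. Tap2 and Nlrc5 were not among the 8 members matched in the table. These matches are letters in a window and not measured binding sites.

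The class I genes did not move as a block. Of the 10 members, 8 changed, 3 of them higher in cKO LSKs (H2-K1, H2-T23 and Tap2) and 5 lower (H2-D1, B2m, Tap1, Tapbp and Erap1). The 5 lower became 2 without CTRL replicate 1, CTRL replicate 2 or cKO replicate 1, 3 without CTRL replicate 3 or cKO replicate 2, and 2 by moderation without a trend. Among all genes tested 40.5% changed, 19.9% higher and 20.6% lower. The cKO and CTRL values of 9 members did not overlap, against 54.0% of all genes tested. Of these 9, 4 were higher and 5 lower, against 25.5% and 28.5% of all genes. The changes were mostly small, with no member past 2-fold, against 2.13% of all genes that passed 2-fold with an unadjusted p under 0.05. The median size of the members' log2 fold changes was 0.216, against 0.152 over all genes tested, and with the sign kept the medians were −0.04 and −0.0096. In bulk RNA from a sorted population, fewer cells of a type and less RNA per cell cannot be told apart.

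**Figure D1:**
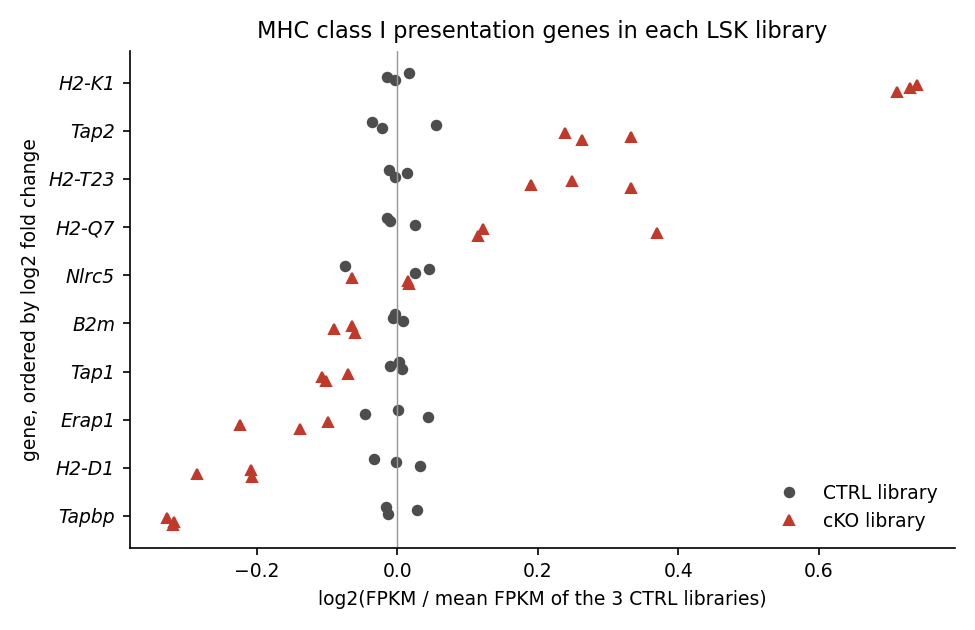
FPKM of each of the 10 genes in each library, as log2 of the ratio to the mean of the 3 CTRL libraries (x axis), with genes ordered by their log2 fold change (y axis). Circles are CTRL and triangles cKO libraries, 3 each. The H2-K1 triangles lie farthest to the right, Tapbp triangles farthest to the left, and only for Nlrc5 do the symbols overlap.

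H2-K1, the classical heavy chain of the K locus (ENSMUSG00000061232, chr17:33996017-34000333, minus strand, mm10), rose most. Its level was 543.9, 539.7 and 551.3 FPKM in CTRL and 892.4, 904.1 and 910.5 FPKM in cKO. The replicates lay close together (545 ± 5.86 against 902 ± 9.17, SD, n = 3), and the lowest cKO library was far above the highest CTRL library. The level was 65.6% higher in cKO, a log2 fold change of 0.73 (SE 0.021, limma adjusted p = 3.84e-06). Across the 16 alternative analyses its log2 fold change stayed between 0.64 and 0.75.

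H2-D1, the classical heavy chain of the D locus (ENSMUSG00000073411, chr17:35262730-35267499, plus strand), fell. It stood at 972.4, 949.3 and 929.3 FPKM in CTRL and at 823.2, 780.0 and 822.7 FPKM in cKO. All cKO libraries were below all CTRL libraries, with means of 950 ± 21.6 and 809 ± 24.8 FPKM (SD, n = 3). The mean fell by 14.9%, a log2 fold change of −0.23 (SE 0.031, limma adjusted p = 0.00166), and the call held in all 16 alternatives. The classical heavy chains thus moved in opposite directions within the same libraries. The ratio of H2-K1 to H2-D1, which no scaling of a library can alter, was 0.559, 0.569 and 0.593 in CTRL and 1.08, 1.16 and 1.11 in cKO. H2-D1 was the more abundant in every control library and H2-K1 in every cKO library.

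The non-classical heavy chains were lower in level and changed less than H2-K1. H2-T23, which encodes Qa-1, the ligand of the NKG2A receptor of NK cells (ENSMUSG00000067212, chr17:36029773-36032855, minus strand), stood at 60.07, 60.75 and 59.73 FPKM in CTRL and at 75.79, 68.65 and 71.52 FPKM in cKO. It was 19.6% higher (60.2 ± 0.519 against 72.0 ± 3.60 FPKM, SD, n = 3), with a log2 fold change of 0.25 (SE 0.039, limma adjusted p = 0.00287) and no overlap. H2-Q7, a gene of the Qa-2 antigen (ENSMUSG00000060550, chr17:35439155-35443773, plus strand), stood at 66.43, 64.83 and 64.64 FPKM in CTRL and at 70.71, 84.42 and 71.09 FPKM in cKO. The second cKO library was well above the others, and the cKO values varied by 10.4% (coefficient of variation). The H2-Q7 difference did not pass the test (log2 fold change 0.20, 95% interval 0.037 to 0.36, limma adjusted p = 0.0559), although no cKO library was as low as a control. Without the second cKO library the log2 fold change was 0.12 and the adjusted p 0.0237.

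Heavy chain genes share stretches of sequence, and how reads that fit several genes were counted is not given in the sources used here. Of the 100-base windows of the longest GENCODE M21 transcript, 13.5% also occurred letter for letter in another gene for H2-Q7, 4.64% for H2-D1, 3.93% for H2-T23 and 0 for H2-K1. With 50-base windows the shares were 28.4%, 14.3%, 15% and 8.11%, so the H2-Q7 value is the least certain of these, and the read length is not given. For H2-K1, 6.52% of its 50-base windows were found in H2-D1, the gene that moved the other way. The remaining members shared 2% or less of their 50-base windows with any other gene.

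The 4 heavy chains together were higher, since the gain of H2-K1 exceeded the loss of H2-D1. Their summed FPKM were 1643, 1615 and 1605 in CTRL and 1862, 1837 and 1876 in cKO, 14.7% higher on average. With the other 8 H2 heavy chain genes tested added, among them the polymorphic pseudogene H2-Q5, the sum was 1928 ± 22.6 FPKM in CTRL and 2191 ± 18.1 FPKM in cKO (SD, n = 3), 13.7% higher. The make-up of the pool shifted with it. H2-K1 gave 33.6% of the sum of the 4 in CTRL and 48.6% in cKO, and H2-D1 gave 58.6% and 43.5%. H2-Q7 (4.03% and 4.06%) and H2-T23 (3.71% and 3.87%) kept minor shares in both groups. These shares are descriptions of chosen genes and were given no test.

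B2m encodes beta-2 microglobulin, the light chain that every one of these heavy chains needs to reach the surface (ENSMUSG00000060802, chr2:122147686-122153083, plus strand). It was the most abundant member by far, and it ranked 12 among all genes by mean FPKM. Its level was 2736, 2711 and 2716 FPKM in CTRL and 2610, 2556 and 2602 FPKM in cKO. Each cKO library was below each control library, yet the mean decreased by 4.85% (log2 fold change −0.072, SE 0.021, limma adjusted p = 0.0318). B2m lies within Patl2 on the opposite strand, which stood at 0.255 and 0.391 FPKM. The B2m call was lost without CTRL replicate 1, CTRL replicate 2, cKO replicate 1 or cKO replicate 3 (adjusted p = 0.123, 0.0863, 0.0708 and 0.0744). The direction was the same throughout, with log2 fold changes from −0.18 to −0.052. The light chain was thus lower in the libraries whose heavy chain sum was higher. B2m over the sum of the 4 heavy chains was 1.67, 1.68 and 1.69 in CTRL and 1.4, 1.39 and 1.39 in cKO, with no overlap (means 1.68 ± 0.0134 and 1.39 ± 0.00735, SD, n = 3).

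**Figure D2:**
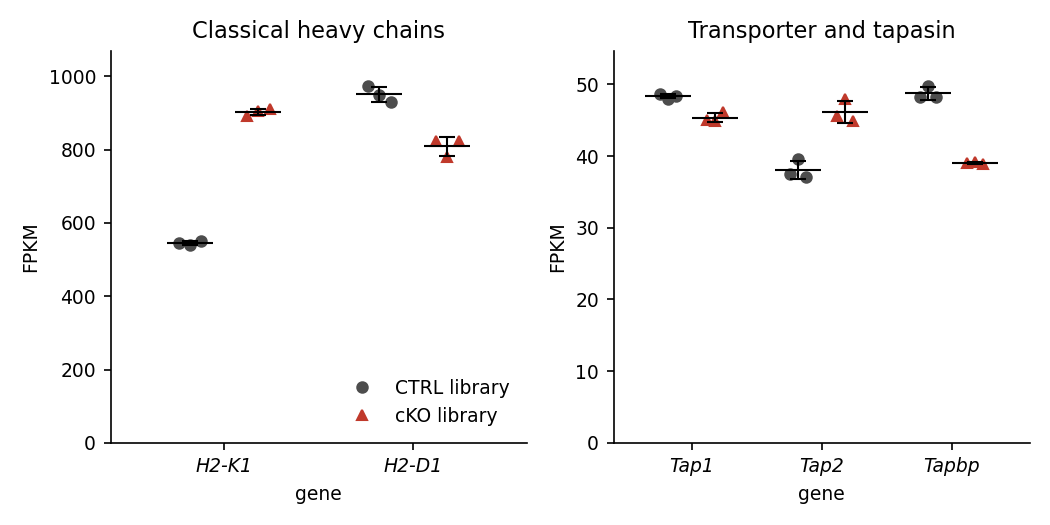
FPKM (y axis, from 0) of the classical heavy chains H2-K1 and H2-D1 (left) and of Tap1, Tap2 and Tapbp (right) in each library. Circles are CTRL and triangles cKO libraries, and the horizontal line with bars is the mean ± SD of 3. H2-K1 passes from below to above H2-D1, and Tap2 from below Tap1 and Tapbp to the level of Tap1 and above Tapbp.

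The subunits of the peptide transporter, which work as a heterodimer, also differed in direction, with a weaker call for Tap1. Tap2 (ENSMUSG00000024339, chr17:34203527-34216321, plus strand) stood at 37.48, 39.53 and 37.11 FPKM in CTRL and at 45.65, 47.91 and 44.91 FPKM in cKO. It was 21.3% higher (38.0 ± 1.30 against 46.2 ± 1.56 FPKM, SD, n = 3), with a log2 fold change of 0.27 (SE 0.038, limma adjusted p = 0.00197). Tap1 (ENSMUSG00000037321, chr17:34187553-34197225, plus strand) stood at 48.60, 48.03 and 48.44 FPKM in CTRL and at 45.07, 44.89 and 46.08 FPKM in cKO. All cKO values of Tap1 were below all control values, but the mean fell by 6.22% (log2 fold change −0.091, SE 0.025, limma adjusted p = 0.0273). Whereas the Tap2 call held in all 16 alternatives, the Tap1 call was lost in 8. The adjusted p for Tap1 was 0.0844, 0.0648 and 0.0693 without CTRL replicates 1, 2 and 3 and 0.0748 and 0.0683 without cKO replicates 1 and 2. After correction for GC and length trends, the Tap1 difference was −0.0046 (adjusted p = 0.915). Tap2 over Tap1 was 0.771, 0.823 and 0.766 in CTRL and 1.01, 1.07 and 0.975 in cKO. Tap1 made up 56.0% of the summed subunits in CTRL and 49.6% in cKO, so the subunit levels were nearer to each other in cKO LSKs.

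Tapbp encodes tapasin, which bridges the transporter and the empty heavy chain (ENSMUSG00000024308, chr17:33915899-33929288, plus strand). It stood at 48.29, 49.72 and 48.20 FPKM in CTRL and at 39.06, 39.12 and 38.84 FPKM in cKO. The cKO libraries were almost equal to each other and all well below the controls. The mean fell by 20.0%, the largest fall among the members (48.7 ± 0.853 against 39.0 ± 0.150 FPKM, SD, n = 3), with a log2 fold change of −0.31 (SE 0.026, limma adjusted p = 0.000229), and it kept its call in all 16 alternatives. Tapbp overlaps Zbtb22 on the same strand over 3421 bases, and Zbtb22 had means of 19.4 FPKM in CTRL and 17.3 FPKM in cKO. Tap2 over Tapbp was 0.776, 0.795 and 0.770 in CTRL and 1.17, 1.22 and 1.16 in cKO.

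Erap1, the aminopeptidase that trims peptides in the endoplasmic reticulum (ENSMUSG00000021583, chr13:74639568-74693201, plus strand), stood at 13.62, 12.80 and 13.23 FPKM in CTRL and at 12.01, 11.32 and 12.35 FPKM in cKO. The groups did not overlap, with means of 13.2 ± 0.412 and 11.9 ± 0.527 FPKM (SD, n = 3, log2 fold change −0.14, SE 0.044, limma adjusted p = 0.0419). The adjusted p of Erap1 was 0.127, 0.0578 and 0.0989 without CTRL replicates 1, 2 and 3, 0.0822 and 0.103 without cKO replicates 1 and 2, and 0.0909 with GC and length trends removed. It overlaps Cast on the opposite strand over 834 bases, and Cast stood at 3.64 and 3.52 FPKM in CTRL and cKO. Whether counting used strand is not given in the sources used here.

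Nlrc5, the transactivator of the class I promoters (ENSMUSG00000074151, chr8:94434356-94527272, plus strand), was the least abundant member and showed no detectable difference. It stood at 6.258, 6.347 and 5.840 FPKM in CTRL and at 6.218, 6.212 and 5.878 FPKM in cKO. The groups overlapped, and the log2 fold change was −0.0090 with a 95% interval from −0.12 to 0.11 (limma adjusted p = 0.897). The sign of the Nlrc5 difference changed in 6 of 16 alternatives.

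The order of the members by level changed in the upper and the middle ranks. In control LSKs it ran B2m, H2-D1, H2-K1, H2-Q7, H2-T23, Tapbp, Tap1, Tap2, Erap1 and Nlrc5, and of these neighbors only Tapbp and Tap1 overlapped. In cKO LSKs it ran B2m, H2-K1, H2-D1, H2-Q7, H2-T23, Tap2, Tap1, Tapbp, Erap1 and Nlrc5, with overlaps between H2-Q7 and H2-T23 and between Tap2 and Tap1. H2-K1 and H2-D1 changed places, and Tapbp dropped below both transporter subunits.

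The rest of the class I and class I-like heavy chain family was equally divided. Of 30 genes listed, 25 were in the table and 14 were tested, and 5 of these rose and 5 fell, with a median log2 fold change of −0.12. Thus 71.4% of those tested changed, against 40.5% of all genes, of which 19.9% were higher and 20.6% lower. The rises were led by Procr, the endothelial protein C receptor and a stem cell surface marker (log2 fold change 0.67), by H2-Q5 (0.57) and by Fcgrt, the neonatal Fc receptor (0.38). H2-Q5, annotated as a polymorphic pseudogene, stood at 24.3 ± 1.51 FPKM in CTRL and 36.6 ± 1.43 FPKM in cKO. Shared windows were counted for the members alone, so those of H2-Q5 and H2-Q1 are not known. The falls were led by H2-T24 (−0.49), H2-Q1 (−0.41) and Cd1d1, which presents lipids to NKT cells (−0.35). The count of 10 became 5 without CTRL replicate 1, 6 without CTRL replicate 3 and 6 without cKO replicate 3, and 6 with a filter at a mean of 5 FPKM.

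Of the genes that supply and load peptides more fell than rose. Of 24 tested, 11 fell, 4 rose and 9 did not pass, with a median log2 fold change of −0.098. Thus 62.5% changed, against 40.5% of all genes tested, of which 19.9% were higher and 20.6% lower. The largest falls were those of Uggt1, the glycoprotein glucosyltransferase that sends misfolded proteins back to calreticulin (−0.46), Hspa5, the chaperone BiP (−0.34), and Calr, calreticulin (−0.34). Calr, the most abundant of these, went from 748 ± 19.1 to 593 ± 13.4 FPKM. It fell by 20.8%, close to the fall of its partner Tapbp. The largest rises were those of Psme3, a proteasome activator subunit (0.22), and of the peptidases Lap3 (0.18) and Thop1 (0.15). The interferon-inducible proteasome subunits did not pass the test, with log2 fold changes of 0.026 for Psmb8 (adjusted p = 0.493), 0.058 for Psmb9 (0.183) and −0.083 for Psmb10 (0.0596). The count of 15 became 8 without CTRL replicate 1 and 9 without CTRL replicate 3. Psmb9 and Tap1 lie head to head on opposite strands and overlap over 212 bases.

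Of the transcription factors and cofactors that act on class I promoters more fell than rose. Of 19 tested, 9 fell, 1 rose and 9 did not pass, with a median log2 fold change of −0.15. Thus 52.6% changed, against 40.5% of all genes tested, of which 19.9% were higher and 20.6% lower. Irf8, a factor of the monocyte and dendritic lineages, fell most, from 52.1 ± 0.553 to 14.5 ± 1.07 FPKM (log2 fold change −1.78). Irf1, the interferon-induced activator of class I genes, stood at 22, 23.4 and 20.8 FPKM in CTRL and at 15, 15.3 and 15.4 FPKM in cKO (−0.50, limma adjusted p = 0.000376). Rfx5, a subunit of the RFX complex on the SXY module, fell as well (−0.29, adjusted p = 0.00316), as did Irf2 (−0.24, adjusted p = 0.0385), and Irf3 was the gene that rose (0.10). In the libraries in which Irf1 and Rfx5 were lower, H2-K1, H2-T23 and Tap2 were higher. H2-D1, B2m, Tap1, Tapbp and Erap1 were lower in them, and a link to either regulator was not tested. The regulator count of 10 became 6 without CTRL replicate 1, 5 without CTRL replicate 2, and 6 without any of cKO replicates 1, 2 and 3.

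Interferon signaling and interferon-stimulated genes, which include many that respond to poly I:C beside class I, were lower in number as well. Of 57 tested, 32 fell and 2 rose, with a median log2 fold change of −0.21. Thus 59.6% changed, against 40.5% of all genes tested, of which 19.9% were higher and 20.6% lower. Ifi27l2a went from 119 ± 6.70 to 73.3 ± 5.11 FPKM (−0.69), Gbp5, a guanylate-binding protein, fell by 0.64 and Ifi44 fell by 0.57 on the log2 scale. Among the signaling genes Socs3, a feedback inhibitor of cytokine receptors, fell most (−0.77), and Irf9 fell by 0.38. Ifi47 (0.18) and Socs1, the feedback inhibitor of interferon receptors (0.45), were the genes that rose. The members that fell (H2-D1, B2m, Tap1, Tapbp and Erap1) went in the direction of this list and H2-K1, H2-T23 and Tap2 went against it. No uninjected mice were analysed here, so the level of class I genes before poly I:C is not known from these libraries.

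MHC class II genes, which present peptides from outside the cell, changed more than class I members did at the median. Of 9 tested, 6 rose and 1 fell, with a median log2 fold change of 1.03. Thus 77.8% changed, against 40.5% of all genes tested. H2-Eb1 (2.13), H2-Aa (1.96) and H2-Ab1 (1.65) rose most, the last from 7.88 ± 0.517 to 26.9 ± 1.47 FPKM. H2-Eb1 went from 0.840 to 7.03 FPKM and H2-Aa from 0.652 to 5.43 FPKM. Both were under 1 FPKM in CTRL and passed the filter through their cKO values, and the count and median include them. Ciita stayed under the filter. H2-DMb2, a subunit of the class II loading factor, fell from 11.9 ± 0.929 to 3.98 ± 1.14 FPKM (−1.40). Even so, class II chains stayed far below the classical class I heavy chains in level in both groups.

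**Figure D3:**
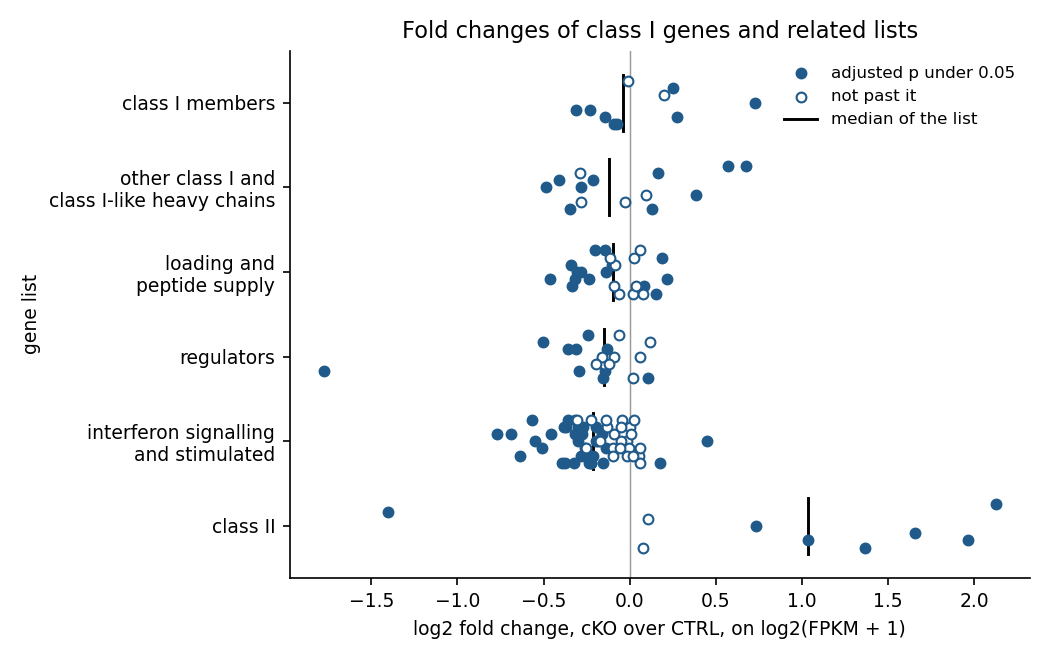
Log2 fold change of cKO over CTRL on log2(FPKM + 1) (x axis) for every tested gene of 6 lists (y axis). Filled points had a limma adjusted p under 0.05, open points did not, and the black line is the median of the list. Class I members spread to both sides of 0, the interferon list lies mostly to the left with a median of −0.21, and the class II list has a median of 1.03.

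On chromosome 17, which holds 7 of the 10 members, higher and lower genes were interspersed. Between Tapbp and H2-T23 (chr17:33915899-36032855, 2.12 Mb), 95 genes were tested and 57 changed, or 60.0%, 31 of them higher and 26 lower. Without the members 51 of 88 changed, or 58.0%, against 40.5% of all genes. Within 50 kb of H2-K1, 9 other genes were tested and 3 changed. B3galt4 was higher (0.24), Vps52 lower (−0.29), and Rps18, named after its values were seen, was higher in every cKO library. Rps18, a protein of the small ribosomal subunit, stood at 340, 337 and 355 FPKM in CTRL and at 881, 823 and 886 FPKM in cKO (log2 fold change 1.32, limma adjusted p = 3.53e-06). The other 84 ribosomal protein genes tested had log2 fold changes from −0.23 to 0.48 with a median of 0.053. H2-K2, a heavy chain pseudogene between Rps18 and H2-K1, gave −0.10 with overlapping groups (adjusted p = 0.333).

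**Figure D4:**
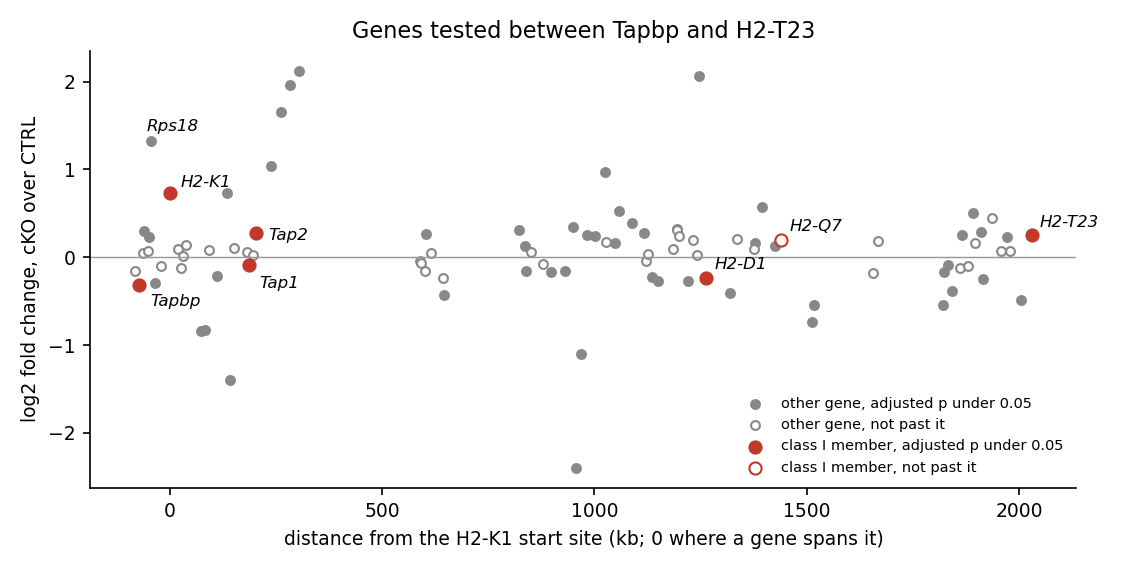
Log2 fold change of cKO over CTRL (y axis) of the 95 genes tested between Tapbp and H2-T23, by distance from the start of H2-K1 in kb (x axis). Red points are class I members and gray points other genes, filled where the limma adjusted p was under 0.05 and open where not. Points lie above and below 0 along the whole region, and Rps18 stands close to H2-K1.

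Markers of several blood lineages differed between the groups as well. Kit, a receptor used for the sort, was a little lower in cKO (23.9 ± 0.454 against 21.5 ± 0.334 FPKM, log2 fold change −0.14, limma adjusted p = 0.0105), and Ly6a, which encodes Sca1, did not pass (−0.092, adjusted p = 0.083). Of 10 LSK markers 9 were tested, 3 of which rose and 1 fell, so 44.4% changed, close to the 40.5% of all genes tested. Over all genes tested, 19.9% were higher and 20.6% lower. All 5 tested monocyte markers of 7 were lower, with summed levels of 407.7 to 447.5 FPKM in CTRL and 157.9 to 177.8 FPKM in cKO, and 6 of 8 neutrophil markers were lower (6641 to 6709 against 3490 to 3553 FPKM). Markers of other lineages were higher. All 7 tested erythroid markers of 8 rose (83.04 to 86.18 against 153.8 to 163.7 FPKM), as did all 4 tested megakaryocyte markers of 6 (63.44 to 68.08 against 136.2 to 142.4 FPKM, with Gp1bb listed at 0) and 5 of 6 mast cell and basophil markers (90.33 to 102.4 against 148.8 to 158.5 FPKM). The part of these differences in the class I values was not tested.

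Few markers of lymphoid and dendritic cells reached the filter, and their counts stand beside 40.5% changed among all genes tested. Of 8 B cell markers 3 were tested and 1 rose, while Ms4a1, Pax5, Ebf1 and Cd22 were among those that stayed under it, and the sums were 30.95 to 36.75 FPKM in CTRL and 31.86 to 33.44 FPKM in cKO. None of the 7 dendritic cell markers was tested, and their sums were 1.578 to 2.041 FPKM in CTRL and 1.398 to 1.922 FPKM in cKO. Of 9 T and NK cell markers 2 were tested, 1 higher and 1 lower (351.3 to 361.9 against 283.9 to 289.3 FPKM), with Cd3e, Cd4, Cd8a and Ncr1 under the filter. Of 6 plasma cell markers 4 were tested, 2 higher and 2 lower (101.8 to 102.3 against 122.6 to 128.8 FPKM). Their part in the class I values was not tested.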

How the data were processed

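RNA-seq libraries of sorted LSK cells were compared, 3 CTRL and 3 cKO. The authors deposited FPKM per gene with the gene lengths, a column per library, and replicates were not pooled. Per the labels, reads were aligned with HISAT2 2.0.5 to mm10, and the counting program is not given in the sources used here. Reads were recovered from FPKM, gene length and each library's step, and 100% of the values came out whole within 0.05 reads (17571544 to 19894562 reads on genes per library). The deposited scaling was close to that of median-of-ratios size factors, which came to 1.004 in every library.

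Genes whose mean over the libraries reached 1 FPKM were tested with limma 3.58.1 in R 4.3.3 (lmFit and eBayes with a trend, log2(FPKM + 1), two-sided, Benjamini-Hochberg adjustment over the 11552 genes tested), after a check on simulated data. An exact permutation test of 3 against 3 cannot go below p = 0.1 and was not used for single genes. Alternatives were other pseudocounts, filters and scalings, moderation without a trend, voom on the recovered reads, a replicate block, leaving out each library and, chosen after seeing the data, removal of GC and length trends. Ratios within a library are descriptions. The 10 members and the other lists were chosen with earlier results of these data known. All members are named, and of each other list the 3 largest rises and falls among genes that changed, plus Psmb8, Psmb9, Psmb10, Irf1, Irf2, Rfx5, Myh9, Kit and Ly6a. Some genes that this rule or the marker lists would name are not reported here. Promoters came from RefSeq (GRCm38.p6), and were scanned with Python 3.11.15. Shared windows were counted on GENCODE M21 transcripts.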

Additional observations from a re-analysis of the deposited data

How the results depend on the processing

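H2-K1, H2-D1, H2-T23, Tap2 and Tapbp kept their direction and their call in all 16 alternatives. Of the 160 member values under the alternatives, 127 kept call and direction, 23 lost the call, 4 gained it (all H2-Q7) and 6 changed sign (all Nlrc5). The count of members higher was 3 or 4 throughout. The count of members lower, 5, was 3 with no filter on low values, 2 by moderation without a trend, 3 with the replicate block and 3 with GC and length trends removed, and 2 to 4 when a library was left out. The labels' replicate numbers did not pair the libraries, since same-numbered libraries correlated at −0.0262 to −0.00459 in their deviations and 0 of 6 correlated best with their own number. The replicate block took the calls over all genes from 4673 to 4107, and B2m (adjusted p = 0.0623) and Tap1 (0.0652) lost theirs. Nlrc5 came to 0.0098 with quantile normalization, 0.010 with voom on recovered reads, 0.107 with GC and length trends removed, and −0.0404 to 0.014 when a library was left out (0.0024 without CTRL replicate 1, 0.011 without CTRL replicate 2 and 0.014 without cKO replicate 3). The other heavy chain genes called, 10, were 6 at a mean of at least 5 FPKM, which tests fewer genes, and 5 to 9 when a library was left out. The 15 loading and peptide supply genes became 8 to 13 and the 10 regulators 5 to 8 when a library was left out. Interferon genes, 34, stayed between 23 and 37. Myh9 was −0.0929 with GC and length trends removed. The B2m to heavy chain ratio stayed between −0.275 and −0.263 on the log2 scale. Voom on recovered reads called 2725 genes higher and 2546 lower. The cause of these changes was not tested. With 3 libraries a group, differences of a few percent, such as those of B2m and Tap1, were at the limit of what these data resolve.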
